A study of Mus musculus with 58 samples.

Results

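The 10 genes described here were the angiopoietin ligands *Angpt1*, *Angpt2* and *Angpt4*, the receptor *Tek* (Tie2) and its relative *Tie1*, and the vascular endothelial growth factor (VEGF) ligands *Vegfa*, *Vegfb*, *Vegfc*, *Vegfd* and *Pgf*. They were chosen by name and found through the mouse Ensembl identifier of each row, as 10 of the 56953 genes of the count table. All 10 passed the filter of at least 5 reads in more than 3 libraries, which left 12464 genes for testing. Adipose stem cells (ASC) had been sorted from inguinal white adipose tissue (iWAT) of C57BL6/J mice, and RNA of each sort was sequenced as a bulk library by Smart-seq3, a protocol that covers transcripts along their length and tags some reads with a molecular identifier. The gate was CD45-/CD31-/CD34+, with DPP4- cells taken as ASC1 and DPP4+ cells as ASC2. Castration or ovariectomy was done at 4 weeks of age and tissue was taken at 10 weeks. Of the 58 libraries, those labelled male were 7 control ASC1, 8 control ASC2, 8 castration ASC1 and 8 castration ASC2, and those labelled female were 8 control ASC1, 8 control ASC2, 3 ovariectomy ASC1 and 8 ovariectomy ASC2. The labels do not say which libraries came from the same mouse, so p-values measure only the spread between these libraries, part of which may be technical.

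Angiopoietins are secreted ligands of the receptor tyrosine kinase Tie2, the product of *Tek*. Angiopoietin 1 activates Tie2 and stabilizes vessels, whereas angiopoietin 2 acts as agonist or antagonist depending on context, and angiopoietin 4 is an agonist. Tie1 binds no angiopoietin with high affinity and modulates Tie2. VEGF-A and placental growth factor bind VEGF receptors on blood endothelium, and VEGF-C and VEGF-D act mainly on lymphatic endothelium. In fat, both systems are known for their part in the growth of the capillary bed, and stromal cells are a known source of the ligands.

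Total counts per library were 106566 to 1421547 (median 682423), so genes of a few CPM (counts scaled to a common library size after TMM normalization, which offsets differences in composition) rest on a handful of reads. Sex-chromosome transcripts went against the sex label in 27 of 58 libraries: 5 of 8 and 6 of 8 female control ASC1 and ASC2 libraries, 4 of 7 and 4 of 8 male control libraries, all 8 castrated ASC1 libraries and none of the castrated ASC2 or ovariectomized libraries. The rule for this was fewer than 3 Y-linked reads or at least 20 *Xist* reads under a male label, or at least 3 Y-linked reads under a female label. Groups are therefore named as the libraries were labelled. For the genes described here, results are also given without these libraries where the result changed. Cell markers and the genes of other lists were not retested without them. The 3 ovariectomized ASC1 libraries stood apart, with 9122 to 11634 genes detected, summed fibroblast marker levels of 42899 to 44887 CPM against at most 13908 CPM elsewhere, and TMM factors of 0.790 to 0.860. Titles of control libraries held the letters A to H and those of castrated or ovariectomized mice the letters I to P. These letters are called rows here, and row and treatment cannot be told apart. The number after the letter was the same for all libraries of one labelled sex and population. Differences of sex or population therefore cannot be told apart from it. The treatment, sex and population comparisons share control libraries, and their results for one gene are not independent. Transcripts of endothelial cells, which the CD31- gate should remove, were low but above 0: the summed level of 8 endothelial markers lay between 23 and 232 CPM per library, led by *Egfl7*.

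The members lie on chromosome 4 (*Tek*, ENSMUSG00000006386.16, and *Tie1*, ENSMUSG00000033191.15), 8 (*Angpt2* and *Vegfc*), 15 (*Angpt1*), 2 (*Angpt4*), 17 (*Vegfa*), 19 (*Vegfb*), 12 (*Pgf*) and X (*Vegfd*). Per kilobase of exon, the mean level over all libraries was highest for *Vegfd*, with 59.5 CPM per kb. *Angpt4* followed with 22.8 CPM per kb, *Tek* with 13.5, *Angpt2* with 12.4 and *Vegfa* with 11.2. *Vegfb* reached 7.30 CPM per kb, *Pgf* 6.18, *Vegfc* 3.08 and *Tie1* 1.77. *Angpt1* was the lowest, with 1.04 CPM per kb and 182 reads in all, and had no read in 16 libraries. The pair of receptors thus differed in level, and among the ligands *Vegfd* and *Angpt4* carried the highest length-scaled signal. In the order of the 8 group means, neighbouring groups overlapped in range for every member except *Tie1*, whose lowest group, ovariectomized ASC1, did not overlap the next.

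*Tek* was higher in ASC2 than in ASC1 in controls of both labelled sexes. In male control ASC1 libraries its level had a lowest value of 5.66, a median of 40.6 and a highest of 55.5 CPM. In male control ASC2 it had a lowest of 86.3, a median of 121 and a highest of 180 CPM. The groups did not overlap, and mean *Tek* was 35.2 ± 17.8 CPM (SD, n = 7) in ASC1 and 130 ± 39.2 CPM (SD, n = 8) in ASC2. The fitted log2 change was 1.87 (SE 0.32), with an adjusted p of 3.5e-05 by edgeR's quasi-likelihood test with Benjamini-Hochberg adjustment over all genes. The two-sided exact permutation test gave p = 0.0001554, the smallest this design allows.

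Female control libraries gave the same direction for *Tek*. ASC1 values ran from 10.7 through a median of 31.2 to 58.8 CPM, and ASC2 values from 43.1 through 96.6 to 243 CPM. Only the lower ASC2 libraries reached into the ASC1 range, and the log2 fold change was 2.05 (SE 0.32, edgeR adjusted p = 6.4e-06). *Tek* was higher in ASC2 also in castrated males, by 1.00 on the log2 scale (SE 0.32, edgeR adjusted p = 0.036), with means of 32.3 ± 7.88 CPM (SD, n = 8) and 64.9 ± 19.8 CPM (SD, n = 8). In ovariectomized females the difference was 0.93 (SE 0.53, edgeR adjusted p = 0.16), over 3 and 8 libraries. Without the libraries that went against their labels, *Tek* still passed in both control comparisons. In castrated males such libraries could not be left out, since all 8 ASC1 libraries went against their label.

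Upstream sequence is shown for the receptor pair, because *Tek* and *Tie1* are related receptors of which only the first passed a test between groups of ASC2 and ASC1 controls. The 250 bases before the RefSeq start site of each gene (build GRCm38.p6, an older build than the GRCm39 used for counting) are printed 5′ to 3′ on the strand of the gene, with capitals marking a match to AGAACA, the half-site of androgen and glucocorticoid receptors, on either strand.
Tek, chr4:94739039-94739288, plus strand: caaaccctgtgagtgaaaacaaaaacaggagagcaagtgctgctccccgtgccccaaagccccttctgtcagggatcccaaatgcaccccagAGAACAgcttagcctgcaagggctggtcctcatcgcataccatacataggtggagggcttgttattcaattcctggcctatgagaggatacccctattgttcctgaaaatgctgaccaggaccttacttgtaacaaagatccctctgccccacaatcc
Tie1, chr4:118489850-118490099, minus strand: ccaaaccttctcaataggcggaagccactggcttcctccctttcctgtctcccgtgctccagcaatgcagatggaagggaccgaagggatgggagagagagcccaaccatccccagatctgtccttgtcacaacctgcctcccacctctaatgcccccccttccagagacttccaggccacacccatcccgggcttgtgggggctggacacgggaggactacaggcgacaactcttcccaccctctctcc
*Tek* held 1 match to AGAACA and *Tie1* none, and 16.1% of the 32851 RefSeq windows of the same length held at least 1. Searched the same way, AGGTCA (the estrogen receptor half-site) was present in 14.0% of windows, ACGTG (the hypoxia-inducible factor core) in 16.6% and CCGGAA (the ETS core) in 12.03%, and neither receptor's window held any of these. Among the other members, *Vegfb* held 2 matches to AGGTCA, and 1 of 2 start sites of *Vegfa* held 1 match to ACGTG. *Angpt1* and *Angpt2* had no entry. A match is a string of letters and not a measured binding site.

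Castration and ovariectomy were both followed by lower *Tek* in ASC2. In castrated ASC2 libraries *Tek* had a lowest value of 41.0, a median of 57.96 and a highest of 96.6 CPM, against the male control values of 86.3, 121 and 180 CPM given above. Of the 8 castrated libraries, 6 lay below every control library and the other 2, rows J and P with 88.8 and 96.6 CPM, lay at the low end of the control range. On the log2 scale the change was -1.02 (SE 0.30, edgeR adjusted p = 0.026), and the two-sided exact permutation p was 0.00093. *Tek* was the only 1 of the 10 members past the threshold in this comparison, where 6.95% of all genes were called and 4.29% were called lower. The call held under every alternative tried, including the one without libraries against their labels.

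In ovariectomized ASC2 libraries *Tek* ran from 26.2 through a median of 34.3 to 83.2 CPM, against 43.1, 96.6 and 243 CPM in female controls. Of these 8 libraries, 6 lay below every control library, and those of rows I and M, with 59.5 and 83.2 CPM, lay within the lower part of the control range. The log2 fold change was -1.45 (SE 0.31, edgeR adjusted p = 0.0033), with a two-sided exact permutation p of 0.0026. *Tek* was again the only member called, against 2.09% of all genes called and 1.44% called lower. Without the libraries against their labels, 2 female control libraries remained, the log2 fold change was -1.76 and the edgeR adjusted p rose to 0.089. In ASC1 the *Tek* difference was -0.15 (SE 0.34, edgeR adjusted p = 0.92) after castration and -0.34 (SE 0.54, edgeR adjusted p = 0.66) after ovariectomy. The difference between ASC2 and ASC1 in the effect itself was -0.87 (SE 0.45, edgeR adjusted p = 0.35) for castration and -1.12 (SE 0.62, edgeR adjusted p = 0.16) for ovariectomy. Without libraries against their labels the ovariectomy term for *Tek* was -2.01 (edgeR adjusted p = 0.042), the only alternative in which it passed.

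**Figure D1:**
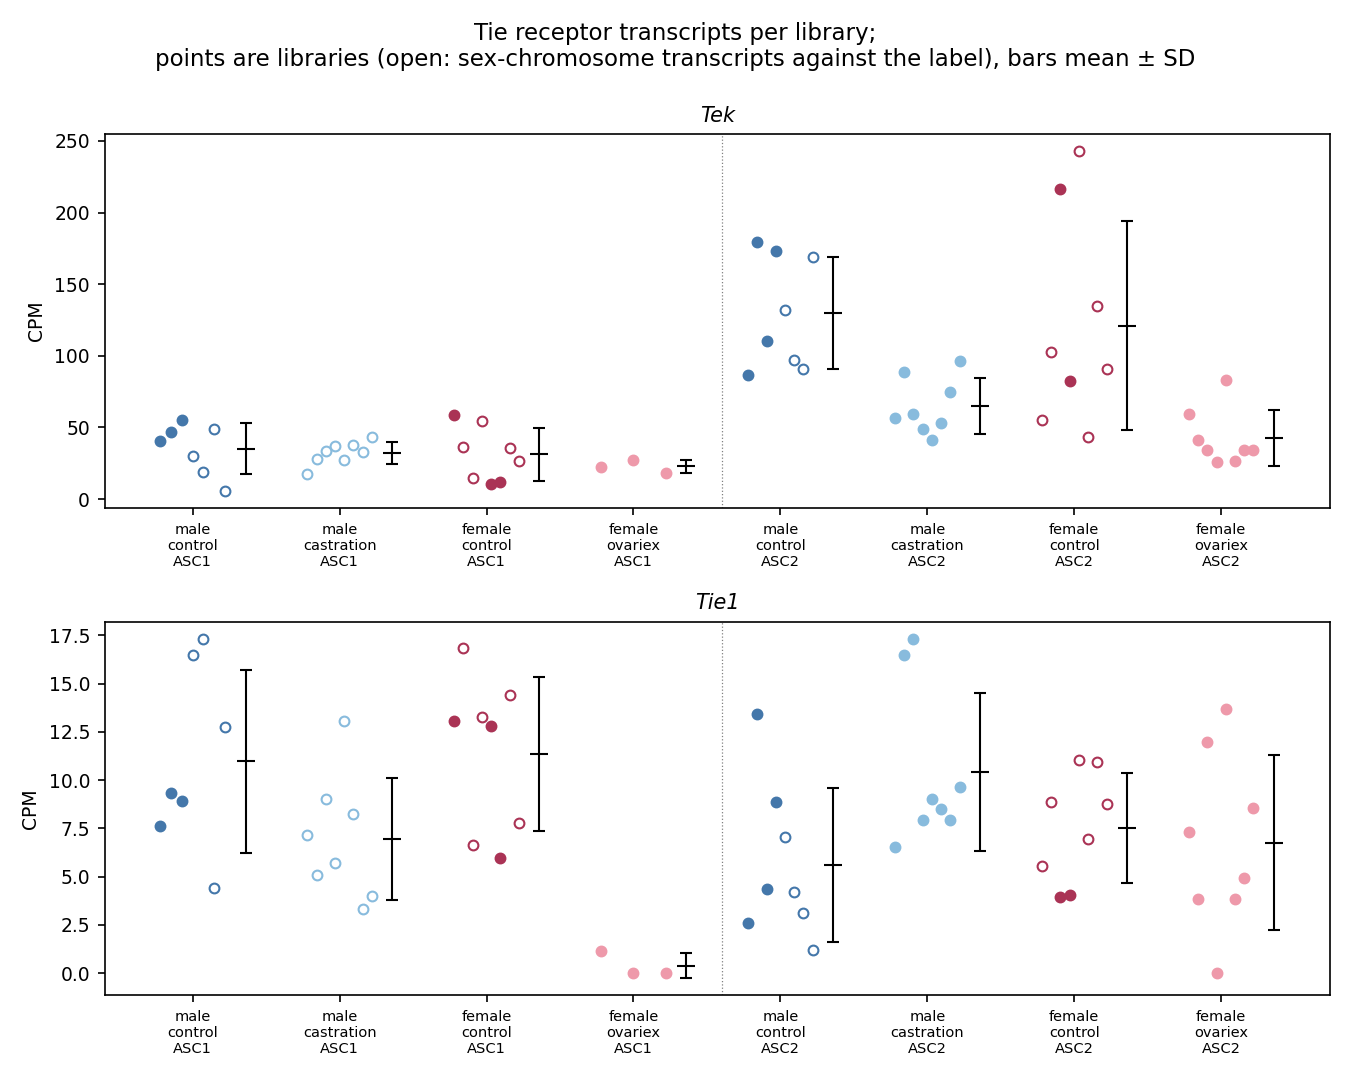
*Tek* (top) and *Tie1* (bottom) in CPM for each library (points, open where sex-chromosome transcripts went against the label) by labelled group, with mean ± SD (bars). *Tek* was highest in the control ASC2 groups, with means of 130 and 121 CPM, and lay between 26.2 and 96.6 CPM in ASC2 of castrated and ovariectomized mice.

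Among the markers of the ASC2 gate, some fell with *Tek* after ovariectomy and none passed after castration. Of 4 ASC2 markers (*Dpp4*, *Cd55*, *Arl4d*, *Pi16*), 2 fell after ovariectomy in ASC2, *Dpp4* by 1.42 (SE 0.34, edgeR adjusted p = 0.013) and *Cd55* by 1.55 (SE 0.35, edgeR adjusted p = 0.0059) on the log2 scale, and *Cd34* of the gate fell by 1.504 (SE 0.32, edgeR adjusted p = 0.0030). After castration none of the 4 passed by edgeR (*Dpp4* at -0.996, SE 0.33, adjusted p = 0.0555), with a median log2 fold change of -0.73 against 0.01 over all genes. The summed level of the 4 was 1717 to 4999 CPM in male control ASC2, 561 to 3129 CPM in castrated ASC2, 1273 to 5904 CPM in female control ASC2 and 506 to 2952 CPM in ovariectomized ASC2. Over the 32 ASC2 libraries, log2(CPM + 1) of *Tek* had a Pearson r of 0.83 with *Dpp4*, 0.81 with *Pi16* and 0.82 with *Cd34*. In the 26 ASC1 libraries r with *Dpp4* was 0.42. Across all 58 libraries the genes most like *Tek* were *Lrrn4cl* (r = 0.79), *Dpp4* (0.78) and *Adgrd1* (0.78). These points share the sort and the groups, and in bulk RNA fewer cells of a type cannot be told apart from less RNA per cell. Whether a shift in the make-up of the sorted ASC2 had a part in the *Tek* difference was not tested.

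Endothelial transcripts went the other way in castrated ASC2. Of 7 endothelial markers tested 5 rose, among them *Egfl7* by 1.55 (SE 0.25, edgeR adjusted p = 3.2e-05) and *Cdh5* by 1.34 (SE 0.38, edgeR adjusted p = 0.022), while *Tek* fell. The summed level of the 8 markers was 41 to 115 CPM in male control ASC2 and 137 to 232 CPM in castrated ASC2, without overlap. After ovariectomy in ASC2 none of the 7 passed, and the sums were 69 to 162 CPM in controls and 64 to 153 CPM in ovariectomized libraries. There the 3 epithelial markers tested rose, *Krt8* by 4.84 (SE 0.88, edgeR adjusted p = 0.00055), with epithelial sums of 6.33 to 37.8 CPM in controls and 9.83 to 1025 CPM after ovariectomy. The high sums lay in rows M to P, at 429 to 1025 CPM, whereas rows I to L had 9.83 to 27.7 CPM, within the control range. Of 8 mural markers 2 rose, among them *Acta2* by 1.62 (SE 0.34, edgeR adjusted p = 0.0030), with sums of 230.1 to 2457 CPM and 1349 to 3565 CPM, and 2 of 4 fibroblast markers fell. Among the female controls, the 6 ASC2 libraries against their label had mural sums of 230.1 to 674 CPM. Rows C and D, which matched it, had 2015 and 2457 CPM, within the ovariectomized range. The part of these other cells' transcripts in the *Tek* difference was not tested. The 6 macrophage markers moved likewise, 2 of 5 tested being higher in castrated ASC2, with sums of 95 to 276 CPM in controls and 206 to 812 CPM after castration. *Tek* had an r of -0.38 with the summed endothelial level over the 32 ASC2 libraries.

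*Tie1*, the co-receptor of Tie2, did not share the pattern of *Tek*. In ASC2 of male controls it had a lowest of 1.18, a median of 4.29 and a highest of 13.4 CPM, and in castrated ASC2 a lowest of 6.55, a median of 8.75 and a highest of 17.3 CPM. The ranges overlapped, and the log2 fold change of 0.85 (SE 0.38) did not pass (edgeR adjusted p = 0.17). Between ASC2 and ASC1 the *Tie1* difference was -0.95 (SE 0.38, edgeR adjusted p = 0.095) in male and -0.59 (SE 0.38, edgeR adjusted p = 0.43) in female controls. Its values rest on 1 to 19 reads per library in these 4 control groups. The r of *Tie1* with the summed endothelial level was 0.78 over the 26 ASC1 libraries but 0.13 over the 23 that remained without the ovariectomized ones, so the first value rests on those 3 libraries. In the 32 ASC2 libraries it was 0.52.

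**Figure D2:**
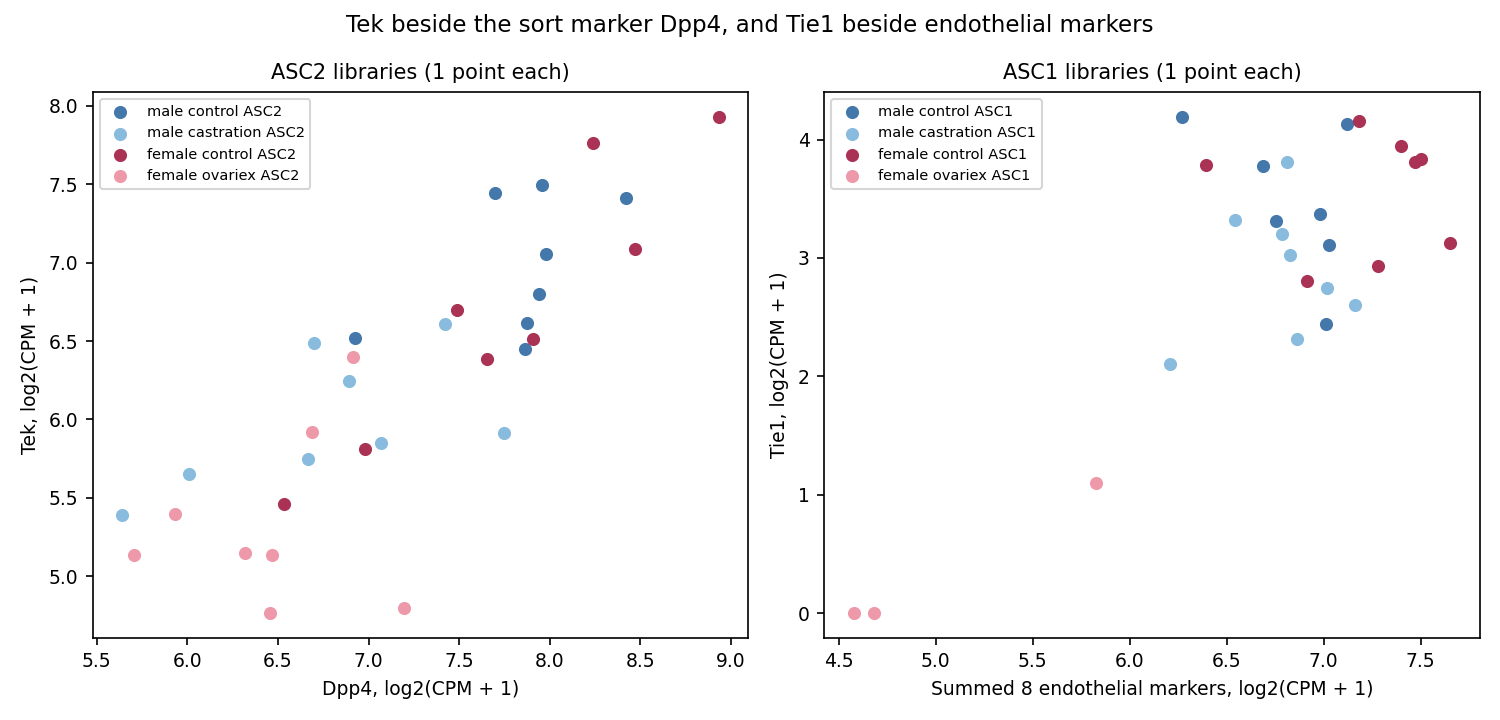
Left, *Tek* against *Dpp4* in the 32 ASC2 libraries, and right, *Tie1* against the summed endothelial markers in the 26 ASC1 libraries, both as log2(CPM + 1) with 1 point per library and colours for groups. *Tek* and *Dpp4* were high and low in the same ASC2 libraries (r = 0.83), whereas the 3 ovariectomized ASC1 libraries alone hold the low corner on the right.

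*Angpt1*, the ligand that activates Tie2, differed by labelled sex in ASC2. Male control ASC2 libraries had a lowest of 6.32, a median of 8.23 and a highest of 37.7 CPM, and female control ASC2 libraries a lowest of 0, a median of 1.64 and a highest of 9.72 CPM. Only 1 female control library, of row F, reached into the male range. The fitted log2 change was 2.22 (SE 0.62, edgeR adjusted p = 0.018), and *Angpt1* was the only member called, against 6.49% of all genes called and 3.61% called higher in males. The value rests on 67 reads in the male and 13 reads in the female libraries. Without libraries against their labels it was 3.56 with an edgeR adjusted p of 0.090, and the *Angpt1* call was also lost when only the groups compared were fitted (adjusted p = 0.057), and filterByExpr removed the gene from testing.

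After castration *Angpt1* was not called by edgeR in either population, while the two-sided exact permutation test, not adjusted over all genes, gave p = 0.00047 in ASC2 and 0.0017 in ASC1. In ASC2 the castrated libraries had a median of 4.77 and a highest of 6.44 CPM, which overlapped the controls only at the bottom of their range, in 1 library (row P). On the log2 scale the change was -1.53 (SE 0.59, edgeR adjusted p = 0.098). In ASC1 the castrated libraries had a lowest of 0, a median of 1.46 and a highest of 5.09 CPM against 4.42, 6.07 and 15.8 CPM in controls, with 1 library (row J) in the control range, and the log2 fold change was -1.74 (SE 0.66, edgeR adjusted p = 0.18). The 8 castrated libraries of that comparison all went against their label. *Angpt1* exons share 17.3% of their bases with *Gm17473* on the opposite strand, and the use of strand in counting is not given in the sources used here, so its reads are uncertain in origin.

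*Angpt2*, the context-dependent ligand, was among the steadier members. Its group means lay between 24.6 ± 13.8 CPM (SD, n = 8) in castrated ASC1 and 62.7 ± 27.2 CPM (SD, n = 8) in castrated ASC2. These same 2 groups gave its only call. Values ran from 11.9 through 22.3 to 53.6 CPM in castrated ASC1 and from 20.7 through 65.8 to 105 CPM in castrated ASC2, with overlap, for a log2 fold change of 1.32 (SE 0.37, edgeR adjusted p = 0.014). The call held in each of the 8 alternatives run, and none could leave out the libraries against their labels, since all castrated ASC1 libraries were among them. None of the 6 treatment and sex comparisons called *Angpt2* by edgeR, and the lowest adjusted p was that of ovariectomy in ASC1, at -1.25 (SE 0.65, edgeR adjusted p = 0.12). It passed there by limma voom with a block for presumed mice (-2.39, adjusted p = 0.012), and in sex of ASC2 without libraries against their labels (2.26, edgeR adjusted p = 0.042).

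*Angpt4*, an agonist of Tie2, varied widely between libraries of one group. In ovariectomized ASC2 the 4 libraries of rows I to L had 218 to 244 CPM and the 4 of rows M to P had 3.83 to 17.1 CPM, with nothing between. In female control ASC2 rows C and D had 133 and 146 CPM and the other 6 libraries 1.58 to 16.1 CPM. In castrated ASC1 rows I and J had 23.2 and 21.6 CPM and the other 6 libraries 123 to 188 CPM. A group mean of *Angpt4* therefore describes few of its libraries. The summed level of 4 epithelial markers (keratins and *Epcam*) also split the ovariectomized ASC2 libraries, at 9.83 to 27.7 CPM in rows I to L and 429 to 1025 CPM in rows M to P. Some other sums split them too, that of the listed inhibitors of vessel growth at 12970 to 14847 CPM in rows I to L and 6251 to 7402 CPM in rows M to P. The part of these differences in the *Angpt4* values was not tested.

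The fitted *Angpt4* difference after ovariectomy in ASC2 was 1.56 (SE 0.59, edgeR adjusted p = 0.17), and after castration in ASC1 1.87 (SE 0.64, edgeR adjusted p = 0.11). Neither passed. Castration in ASC1 called 0 of the 10 members by edgeR and 0 by DESeq2, against 2.36% of all genes by edgeR, and 4 members (*Angpt1*, *Angpt4*, *Vegfa* and *Vegfd*) had an unadjusted p below 0.05. The two-sided exact permutation test gave *Angpt1* p = 0.0017, *Vegfd* 0.0036, *Vegfa* 0.0051, *Angpt4* 0.013 and *Angpt2* 0.027 in that comparison, none of them adjusted over all genes. The population difference in castrated males was called, at -2.98 (SE 0.66, edgeR adjusted p = 0.0014), with 119 ± 62.8 CPM (SD, n = 8) in ASC1 and 13.8 ± 14.8 CPM (SD, n = 8) in ASC2. All of these ASC1 libraries, and none of these ASC2 libraries, went against their label. By r of log2(CPM + 1) over 58 libraries, the genes most like *Angpt4* were *Adam19* (0.90), *Lox* (0.90), a collagen and elastin crosslinking enzyme, and *Frzb* (0.89), a secreted Wnt antagonist. Among the members, r with *Angpt4* was 0.62 for both *Vegfa* and *Vegfd*.

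**Figure D3:**
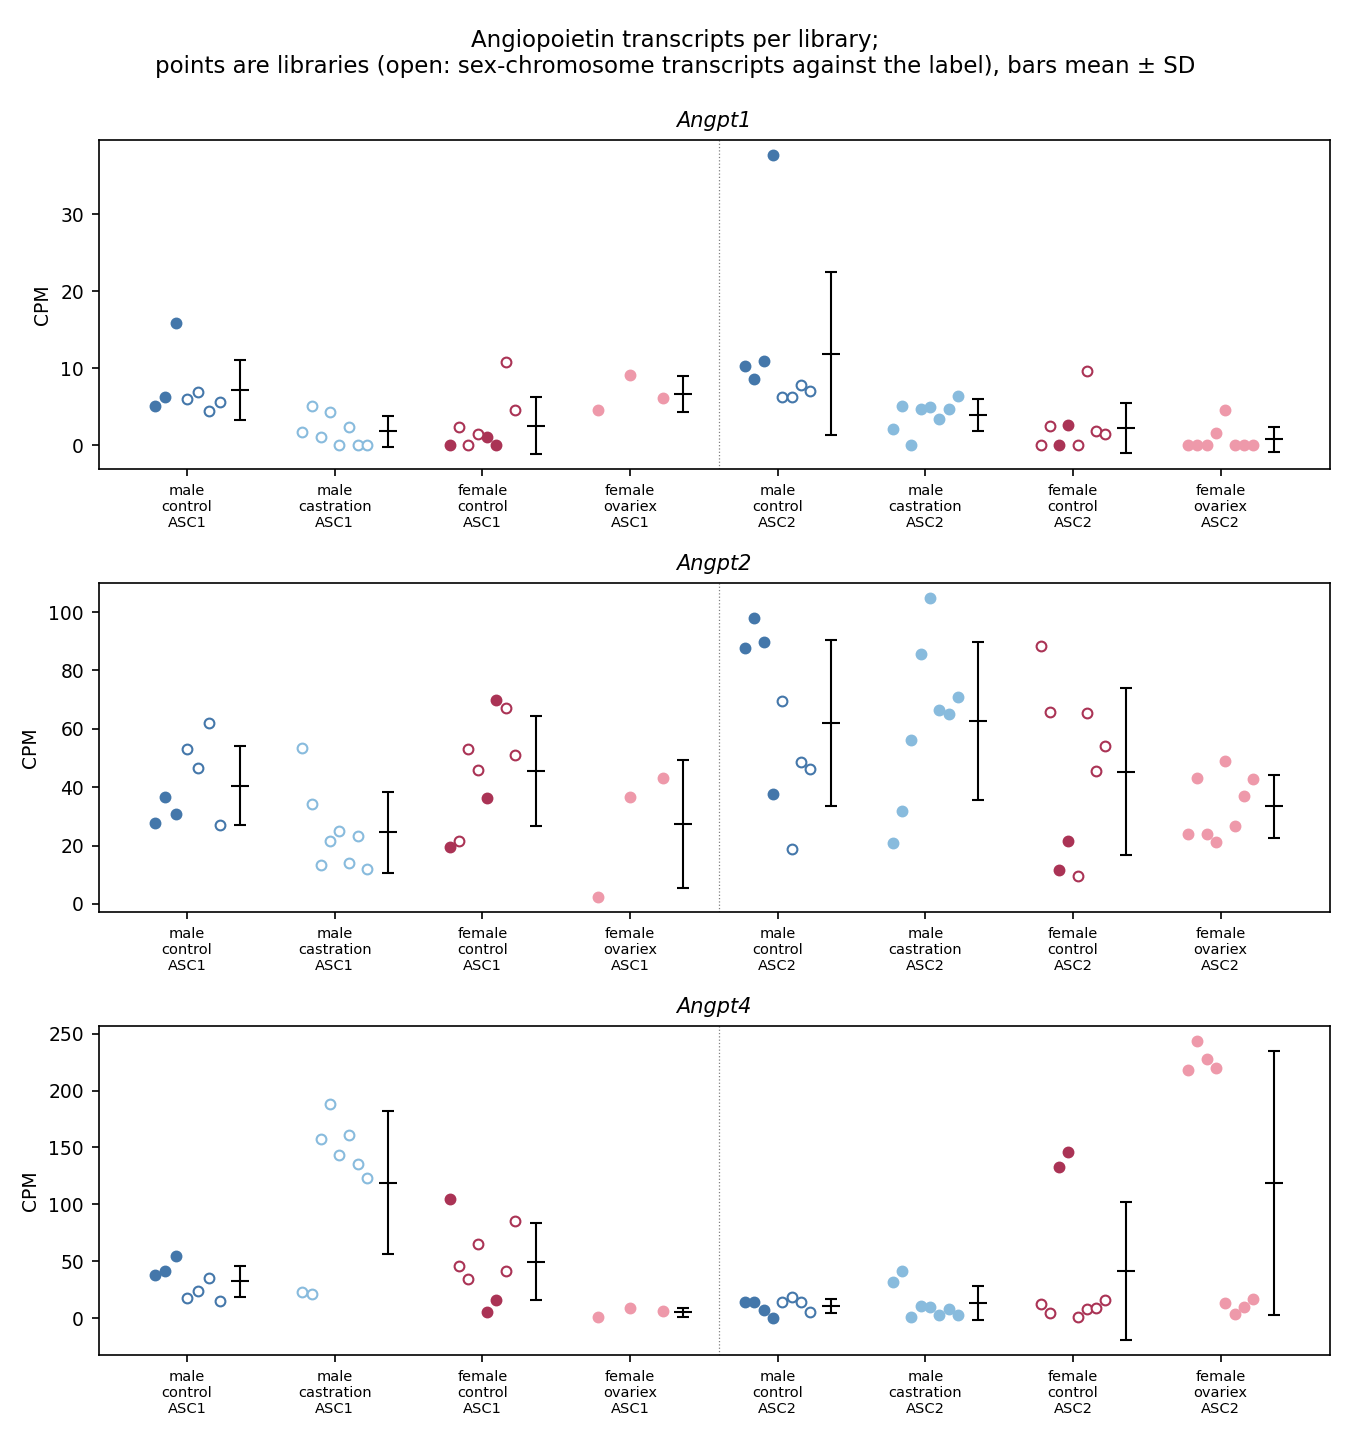
*Angpt1*, *Angpt2* and *Angpt4* in CPM for each library (points, open where sex-chromosome transcripts went against the label) by labelled group, with mean ± SD (bars). *Angpt4* fell into a high and a low set within ovariectomized ASC2, at 218 to 244 and 3.83 to 17.1 CPM, and *Angpt1* stayed below 11 CPM in all but 2 libraries, both of row D in male controls.

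*Vegfa*, the main ligand of blood vessel growth, read higher in ASC1 than in ASC2 of libraries labelled male. Male control ASC1 libraries ran from 18.8 through 44.9 to 58.04 CPM, and ASC2 libraries from 4.44 through 25.2 to 37.6 CPM. The ranges overlapped, and the log2 fold change (ASC2 against ASC1) was -1.03 (SE 0.32, edgeR adjusted p = 0.023). With *Tek*, it made 2 of 10 members called in male controls, against 12.2% of all genes. The *Vegfa* call was lost with only the groups compared (adjusted p = 0.053) and without libraries against their labels (-1.08, adjusted p = 0.16). In castrated males the same difference was -1.16 (SE 0.30, edgeR adjusted p = 0.0071), between medians of 66.8 and 28.2 CPM. There all ASC1 libraries went against their label, so it could not be computed without such libraries. In female controls it was -0.50 (SE 0.31, edgeR adjusted p = 0.41).

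After ovariectomy *Vegfa* in ASC2 lay just outside the threshold. Female control ASC2 libraries had a lowest of 9.21, a median of 17.8 and a highest of 58.8 CPM, and ovariectomized ones a lowest of 22.2, a median of 62.4 and a highest of 81.1 CPM. The log2 fold change was 1.04 (SE 0.30, edgeR adjusted p = 0.051), and DESeq2, RLE size factors, filterByExpr and no filter each put *Vegfa* past 0.05, while the value was 0.09 (adjusted p = 1) without libraries against their labels. Both high control libraries, rows C and D with 58.8 and 51.4 CPM, were those whose sex-chromosome transcripts matched the label. Castration gave 0.69 (SE 0.30, edgeR adjusted p = 0.27) in ASC1 and 0.57 (SE 0.31, edgeR adjusted p = 0.29) in ASC2. The genes most like *Vegfa* over 58 libraries were *Ptprs* (r = 0.86), *Lrrc32* (0.86) and *Pkm* (0.85), which encodes the glycolytic pyruvate kinase.

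*Vegfd*, the lymphatic ligand encoded on the X chromosome, was the only member called between the labelled sexes in ASC1, where 0.289% of all genes were called and 0.152% were called lower in males. Female control libraries had a lowest of 47.9, a median of 272 and a highest of 375 CPM, and male control libraries a lowest of 44.2, a median of 78.6 and a highest of 93.1 CPM. The log2 fold change (male against female) was -1.58 (SE 0.35, edgeR adjusted p = 0.014). The 5 female control libraries with at least 3 Y-linked reads had 241 to 375 CPM, and the 3 with 0 or 1 had 47.9 to 170 CPM. With libraries against their labels left out, the *Vegfd* difference was 0.16 (edgeR adjusted p = 0.97), so the call rests on libraries whose transcripts contradict their sex label.

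In ASC2 *Vegfd* differed between labelled sexes by -0.64 (SE 0.33, edgeR adjusted p = 0.26). Ovariectomized ASC2 libraries split as for *Angpt4*, with 174 to 202 CPM in rows I to L and 30.6 to 72.9 CPM in rows M to P. In castrated males *Vegfd* was lower in ASC2 than in ASC1 by -0.99 (SE 0.33, edgeR adjusted p = 0.046), between medians of 66.8 and 159 CPM. That comparison called 5 of 10 members, *Angpt2* and *Tek* higher in ASC2 and *Angpt4*, *Vegfa* and *Vegfd* lower, against 9.07% of all genes. All castrated ASC1 libraries and none of the castrated ASC2 libraries went against their label. Match to the label and population therefore cannot be told apart for these 5 members. *Pbxip1* (r = 0.84), *Adamts2* (0.80) and *Gda* (0.80) were most like *Vegfd*.

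*Vegfc*, the other lymphatic ligand, read higher in ASC1 than ASC2 in each group but passed only in female controls. There ASC1 libraries ran from 3.99 through 15.3 to 20.2 CPM and ASC2 libraries from 1.39 through 3.99 to 7.30 CPM. The fitted log2 change was -1.69 (SE 0.53, edgeR adjusted p = 0.039), and *Vegfc* and *Tek* were the 2 of 10 members called in female controls, against 6.11% of all genes. The *Vegfc* value rests on 64 and 23 reads and was -0.33 (adjusted p = 0.97) without libraries against their labels. In male controls the difference was -1.21 (SE 0.53, edgeR adjusted p = 0.13).

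*Vegfb*, a ligand of VEGF receptor 1, and *Pgf*, which shares that receptor, were low in all groups. Mean *Vegfb* outside the ovariectomized ASC1 group was 6.71 to 14.0 CPM and mean *Pgf* 7.61 to 18.0 CPM. Neither passed the edgeR test in castration, in sex or in ovariectomy of ASC2. For *Pgf* the closest was sex in ASC2, at -0.83 (SE 0.38, edgeR adjusted p = 0.20).

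**Figure D4:**
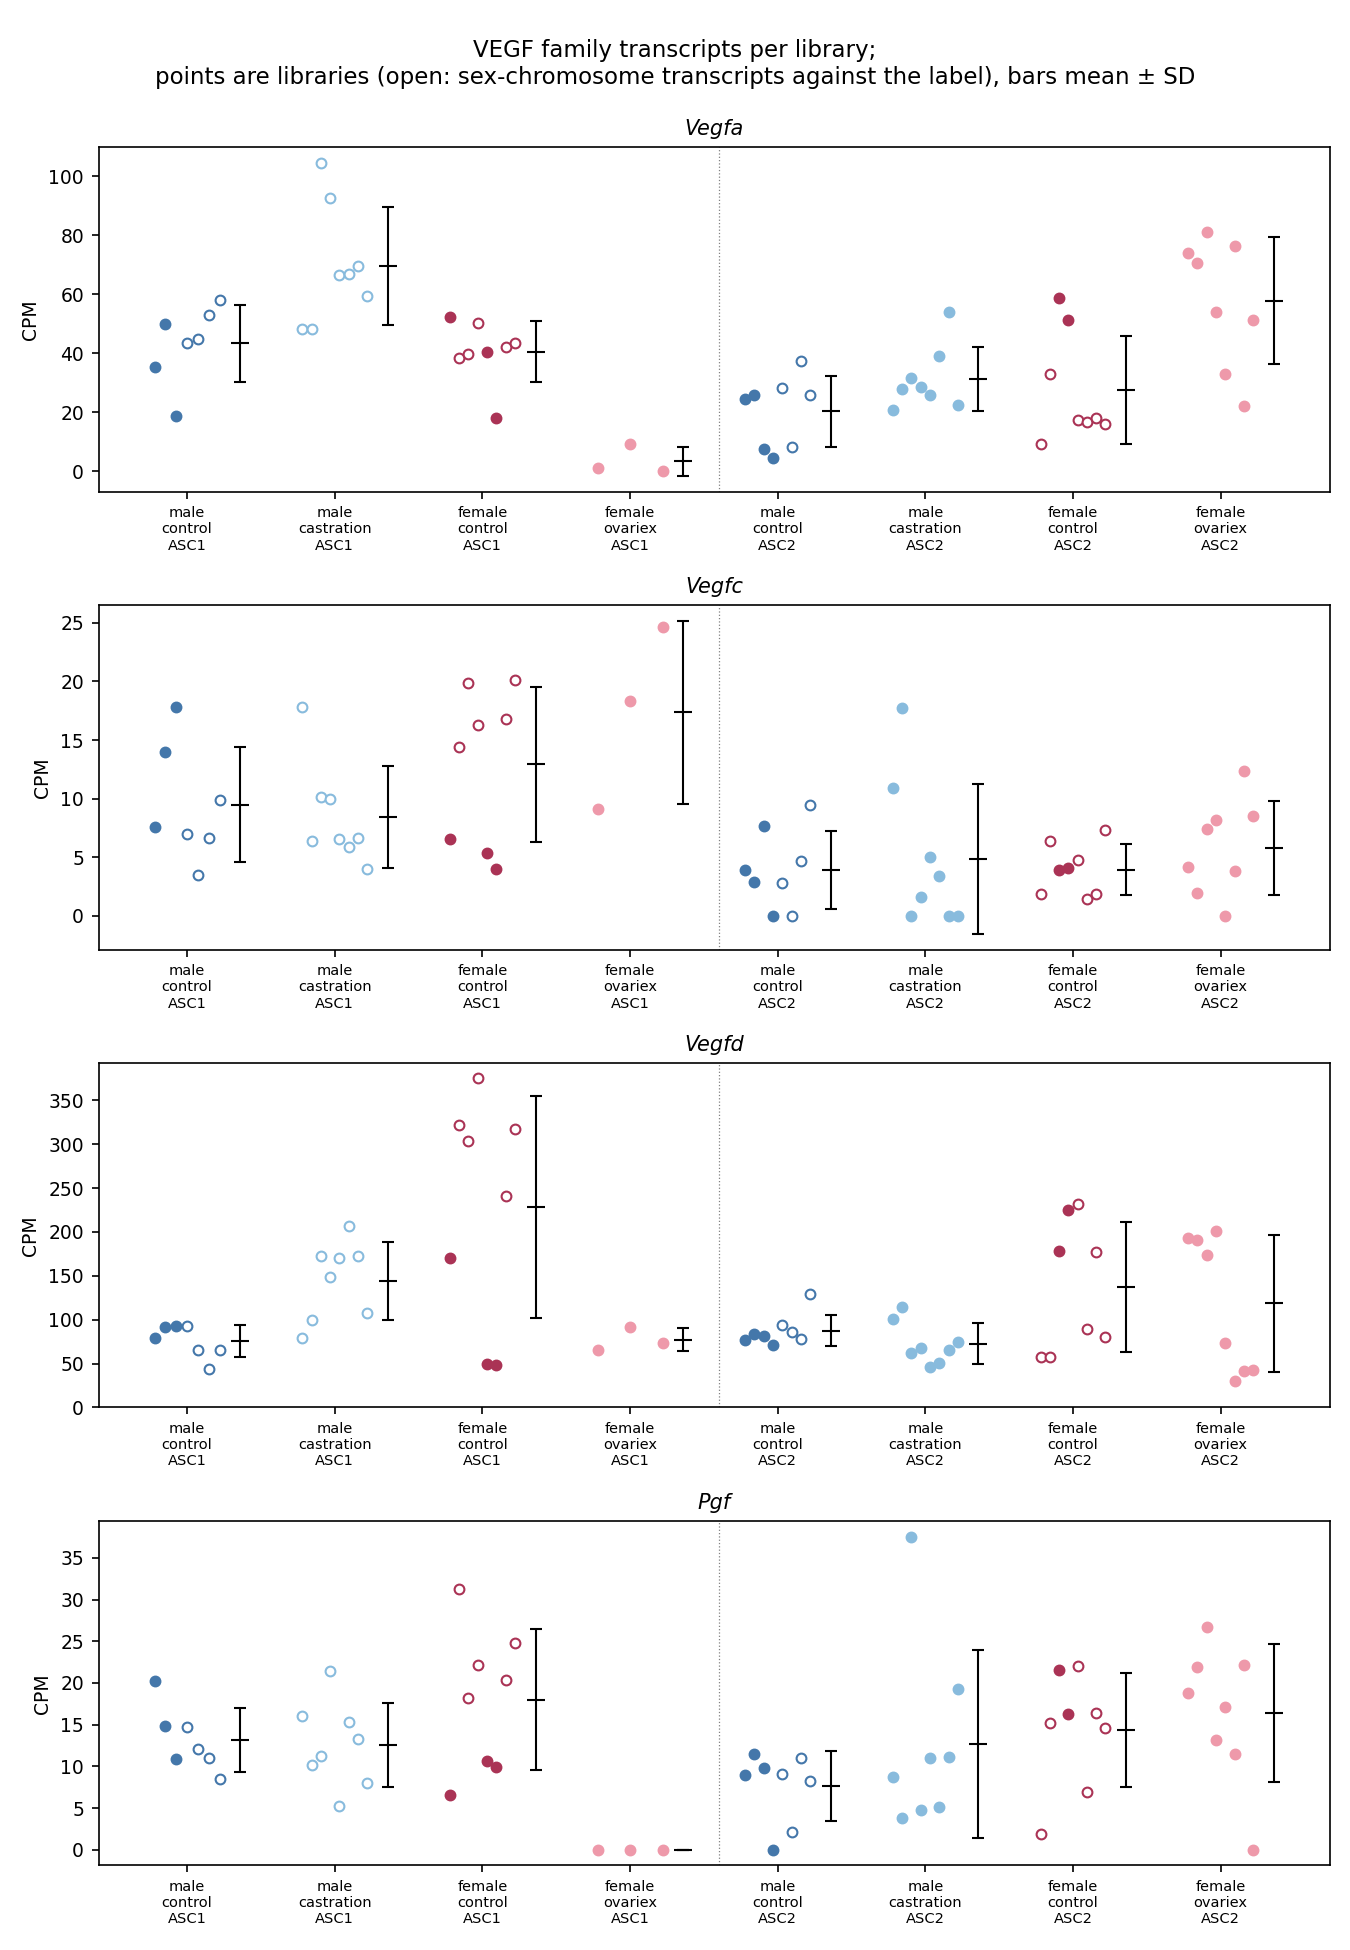
*Vegfa*, *Vegfc*, *Vegfd* and *Pgf* in CPM for each library (points, open where sex-chromosome transcripts went against the label) by labelled group, with mean ± SD (bars). The highest *Vegfd* values, 241 to 375 CPM, were open points in female control ASC1, and *Pgf* had no read in the 3 ovariectomized ASC1 libraries.

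The 3 ovariectomized ASC1 libraries had few or no reads of several members. *Vegfa* had 1.14, 9.16 and 0 CPM in rows L, N and P, from 3 reads in all, against 17.9 to 52.2 CPM in female control ASC1. *Pgf* had no read in any of the 3. *Tie1* had 1.14 CPM in row L, from 1 read, and none in the other 2. These groups did not overlap for *Vegfa*, *Pgf* or *Tie1*, each with a two-sided exact permutation p of 0.0061, the smallest 3 against 8 libraries allow.

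By pooled reads over pooled totals, *Vegfa* was 21.5-fold higher in female control ASC1 than in ovariectomized ASC1 (95% exact interval 7.26 to 105). The ratio for *Tie1* was 18.2 (3.12 to 731) and for *Vegfb* 6.73 (2.19 to 33.5), and *Pgf* was at least 9.87-fold higher, taking a floor of 3 counts over the 3 libraries. These intervals cover counting error only. The pooled totals were not TMM-scaled, unlike CPM elsewhere in this text. TMM factors were 0.790 to 0.860 in ovariectomized ASC1 and 0.991 to 1.11 in female control ASC1, so TMM scaling would lower these ratios. Mean TMM-scaled *Vegfa* was 40.6 CPM in female control ASC1 and 3.43 CPM in ovariectomized ASC1. The fitted values were -3.90 (SE 0.77, edgeR adjusted p = 6.1e-05) for *Vegfa*, -3.60 (SE 0.91, edgeR adjusted p = 0.0015) for *Tie1*, -2.48 (SE 0.90, edgeR adjusted p = 0.026) for *Vegfb* and -1.59 (SE 0.51, edgeR adjusted p = 0.012) for *Vegfd*. *Pgf* was called as well (edgeR adjusted p = 9.1e-05), with a fitted size that depends on the prior count. Without libraries against their labels *Vegfd* was at -0.06 (adjusted p = 0.96). Leaving out single libraries moved the sizes, to -5.95 for *Tie1* and -6.15 for *Vegfb* without row L and to -2.94 without row L or -5.12 without row N for *Vegfa*. Leaving out row L ended the call of *Vegfd* (adjusted p = 0.086), and leaving out row N or P ended that of *Vegfb* (adjusted p = 0.083 and 0.066). So 5 of 10 members were called lower, beside 34.8% of all genes called and 22.1% called lower, and the members' median of -2.04 stood beside -0.34 over all genes.

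*Tek*, *Angpt1*, *Angpt2*, *Angpt4* and *Vegfc* were not called there by edgeR. *Angpt4* had 1.14, 9.16 and 6.16 CPM from 4 reads, for a fitted -3.67 (SE 1.503, edgeR adjusted p = 0.051). *Tek* had 22.7, 27.5 and 18.5 CPM in rows L, N and P, within the control range of 10.7 to 58.8 CPM. *Angpt4* passed with DESeq2 (adjusted p = 0.017), with filterByExpr (0.04998), with no filter (0.0050) and with only the groups compared (0.0096). *Vegfc* had 9.09, 18.3 and 24.6 CPM, and *Angpt1* 4.55, 9.16 and 6.16 CPM. The sums of other cells' markers were low in the same 3 libraries. The epithelial sum was 0 CPM in all 3 against 39 to 713 CPM in female control ASC1, the endothelial sum 23 to 56 against 83 to 200 CPM and the macrophage sum 25 to 27 against 76 to 413 CPM. Their part in the lower *Tie1*, *Pgf* and VEGF values was not tested.

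Comparisons that reuse these 3 libraries followed them. Between ovariectomized ASC2 and ASC1, *Angpt4*, *Pgf*, *Tie1*, *Vegfa* and *Vegfb* were called higher in ASC2, 5 of 10 beside 35.4% of all genes called and 22.5% called higher. The *Vegfb* call was lost in every alternative, and those of *Angpt4* and *Tie1* were lost without row L (adjusted p = 0.071 and 0.072). The ovariectomy effect differed between the populations for 6 of 10 members, all toward higher values in ASC2, beside 34.8% of all genes called and 22.1% called higher. *Vegfa* had the interaction term with the lowest p, 4.94 on the log2 scale (SE 0.82, edgeR adjusted p = 2.9e-06). The castration effect differed between populations for none of the members, beside 2.41% of all genes, and the sex difference for none, beside 0.128%.

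**Figure D5:**
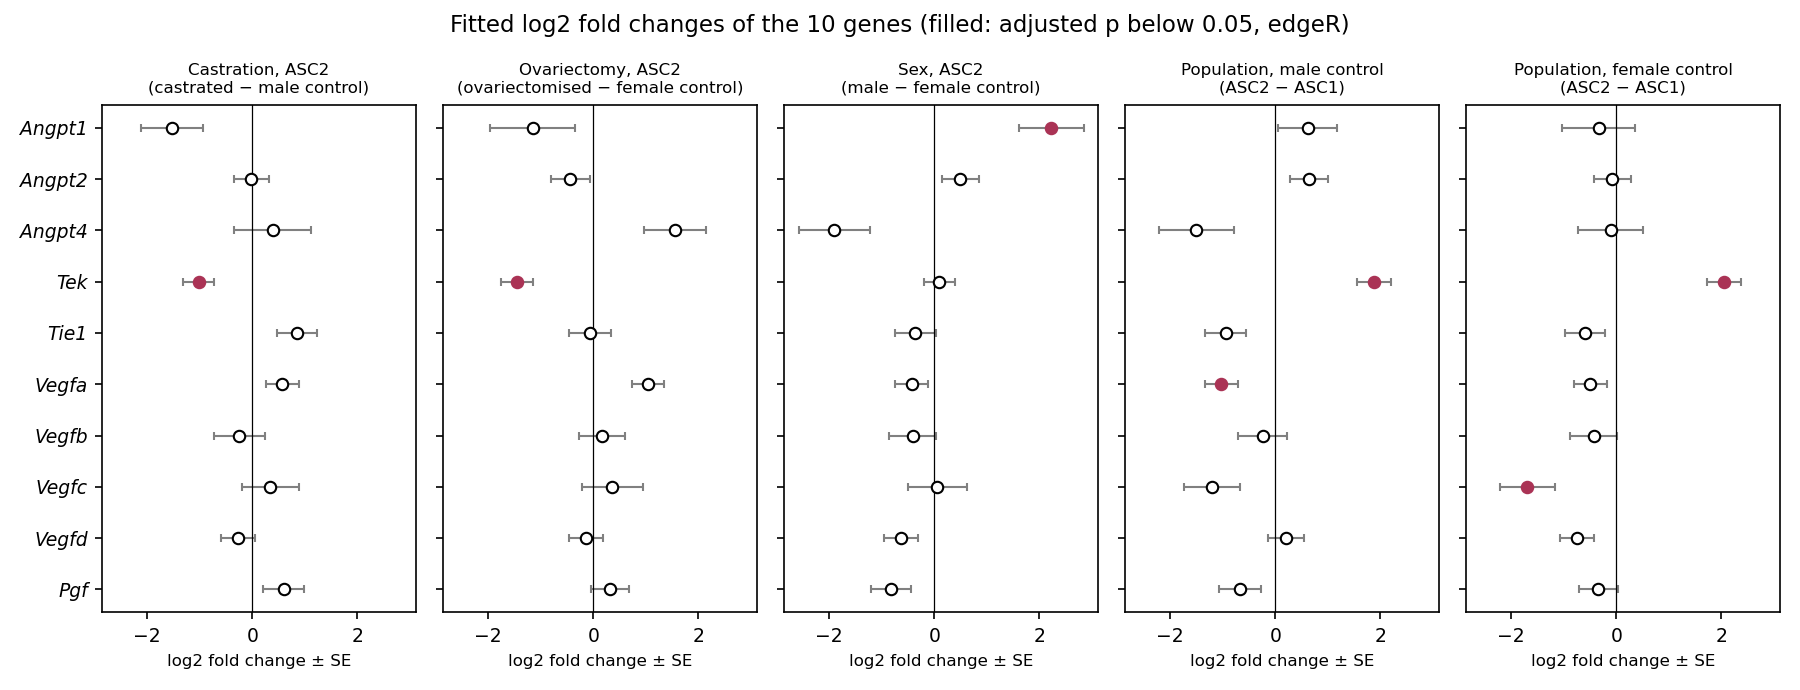
Fitted log2 fold changes (points) with standard errors (bars) of the 10 genes in 3 ASC2 comparisons and in ASC2 against ASC1 of the controls, with filled points past an adjusted p of 0.05 by edgeR. *Tek* is the filled point at -1.02 and -1.45 after castration and ovariectomy and at 1.87 and 2.05 between the populations, and *Angpt1* at 2.22 between the labelled sexes.

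The receptors and regulators around these ligands were read as gene lists, whose counts stand beside shares of all genes called of 6.95% in castrated ASC2, 2.09% in ovariectomized ASC2, 6.49% between sexes in ASC2, and 12.2% and 6.11% between populations of male and female controls. Of 5 VEGF receptors and coreceptors (*Kdr*, *Flt1*, *Flt4*, *Nrp1*, *Nrp2*), 2 rose in castrated ASC2, *Kdr* by 1.68 (SE 0.46, edgeR adjusted p = 0.016) and *Nrp2* by 1.29 (SE 0.34, edgeR adjusted p = 0.012), none fell, and none passed after ovariectomy in ASC2. *Kdr* and *Nrp1* were called lower in male than female control ASC2, at -1.49 (SE 0.46, edgeR adjusted p = 0.037) and -1.01 (SE 0.31, edgeR adjusted p = 0.037). The rise of *Kdr* stood beside the endothelial sums given above. Of 3 tested modulators of Tie2 or of VEGF-C, *Ptprb*, the phosphatase that dampens Tie2, rose in castrated ASC2 by 2.19 (SE 0.71, edgeR adjusted p = 0.048). *Svep1* and *Ccbe1*, matrix proteins of lymphatic growth, were lower in ASC2 than ASC1 in both controls, *Svep1* at -1.89 and -1.93 and *Ccbe1* at -1.79 and -2.08, with edgeR adjusted p of 0.010 and 0.0075 for *Svep1* and 0.026 and 0.0041 for *Ccbe1*. The summed level of the listed modulators was 444 to 538 CPM in female control ASC1 libraries against their label. Those that matched had 274, 68 and 74 CPM, beside 200 and 166 CPM in matching female control ASC2 libraries. In male controls the sums were 65.7 to 304 CPM in ASC1 and 35.8 to 65.6 CPM in ASC2. Neither gene was retested without libraries against their labels.

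Among 7 tested oxygen-sensing genes, 1 passed in castrated ASC2, *Egln1* (a prolyl hydroxylase of HIF), which rose by 1.07 (SE 0.28, edgeR adjusted p = 0.012), and none passed after ovariectomy in ASC2 or after castration in ASC1. Of 16 other angiogenic factors, 1 rose and 1 fell in castrated ASC2 and 1 rose and 1 fell in ovariectomized ASC2, where *Sema3c*, a guidance ligand, fell by 1.76 (SE 0.39, edgeR adjusted p = 0.0050). *Sema3c* was also higher in ASC2 than in ASC1 of controls, by 3.70 (SE 0.48) in males and 4.23 (SE 0.48) in females (edgeR adjusted p = 1.3e-07 and 1.2e-09), as *Tek* was, and *Cxcl12* was lower, at -2.21 and -1.69 (edgeR adjusted p = 9.5e-06 and 0.00041). Of 7 tested inhibitors of vessel growth, *Thbs1* rose by 1.15 (SE 0.32, edgeR adjusted p = 0.040) and *Timp3*, which blocks VEGF binding to its receptor, fell by 1.26 (SE 0.25, edgeR adjusted p = 0.0017) in ovariectomized ASC2, with 1 higher and 2 lower in all. None of the 6 tested angiopoietin-like genes passed in castration or in ovariectomy of ASC2. The median log2 fold change of the 10 members was 0.16 after castration and 0.05 after ovariectomy in ASC2, beside 0.01 and 0.00 over all genes.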

How the data were processed

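RNA of sorted ASC from iWAT was measured in 58 bulk Smart-seq3 libraries. Per the study's methods and the submitters' processing notes, the authors trimmed with NGmerge, checked quality with FastQC 0.11.9 and STAR 2.7.10a, and quantified with Salmon 1.9.0 against the Gencode transcripts (GRCm39). Libraries with few detected genes had been dropped by the authors, who deposited expected counts (estimated counts per gene, not normalized, reads with and without UMI summed). Of the counts above 0, 15.0% were not whole.

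Counts were rounded and tested in R 4.3.3 with edgeR 4.0.16 (TMM, 8 group coefficients, glmQLFit and glmQLFTest) on 12464 genes, with Benjamini-Hochberg adjusted p below 0.05 as the threshold. Single genes were also tested by two-sided exact permutation of mean log2(CPM + 1), written in Python 3.11.15. The exact intervals of the pooled ratios came from scipy 1.17.1. Symbols were matched to Gencode annotation for 12371 of the tested genes. Exon lengths came from an annotation of GRCm38. Total counts per library were 106566 to 1421547, the common coefficient of variation between replicates was 35.6%, and no 2 replicates were copies (lowest chi-square per gene 1.57). On simulated data for castration in ASC2 (12142 genes, 200 changed by 4-fold) 194 were recovered with 8 false calls. The changed genes were drawn only from those with more reads than *Angpt1*, *Tie1*, *Vegfb*, *Vegfc* or *Pgf* had. Recovery at such low reads or of smaller changes was not tested. Alternatives were DESeq2 1.42.0, RLE size factors, filterByExpr, no filter, only the groups compared, replicate blocks, leaving out single libraries of the group of 3, and leaving out libraries against their sex label. Alternatives were computed for the members only. All members were named. Of each gene list the counts and up to 3 genes with the lowest adjusted p were given, *Flt1*, *Flt4*, *Arl4d* and *Epcam* being named only as list members, and for members of at least 20 CPM the 3 most similar genes. *Gm17473* was named for its overlap. The members and lists were chosen with earlier results of these data known.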

Additional observations from a re-analysis of the deposited data

Results flagged for a closer look

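In 9 of 70 combinations of gene and group examined, 1 library lay far from the rest, by a limit set to pass about 1 in 20 groups by chance for normally spread values, which low counts are not. For *Angpt1* these were the highest libraries of 5 groups: 10.8 CPM in row G of female control ASC1 (9 reads, the others at most 4.65 CPM), 9.72 CPM in row F of female control ASC2, 4.56 CPM in row M of ovariectomized ASC2, 15.8 CPM in row D of male control ASC1 and 37.7 CPM in row D of male control ASC2 (17 reads, the others 6.32 to 10.9 CPM). Row D was the highest in both populations of labelled male controls. *Vegfa* was lowest in row F of female control ASC1 (17.9 CPM, the others 38.5 to 52.2 CPM). *Vegfc* stood high in row I of castrated ASC1 (17.9 CPM), *Vegfd* in row H of male control ASC2 (129 CPM) and *Pgf* in row K of castrated ASC2 (37.5 CPM).

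The ovariectomy effect differed between ASC2 and ASC1 by the edgeR interaction term for 6 of 10 members, beside 34.8% of all genes. On the log2 scale the difference was 5.23 for *Angpt4*, 3.54 for *Tie1*, 4.94 for *Vegfa*, 2.64 for *Vegfb*, 1.46 for *Vegfd* and 7.004 for *Pgf*, with adjusted p of 0.0078, 0.0050, 2.9e-06, 0.036, 0.0496 and 0.00010. Those of *Vegfd* and *Vegfb* were lost when single libraries of the group of 3 were left out, and that of *Angpt4* without row L. All 6 rest on the 3 ovariectomized ASC1 libraries, and the fitted value for *Pgf*, without a read there, depends on the prior count. Castration by population called none of the members (2.41% of all genes), with 2 of them, *Tie1* and *Vegfd*, at an unadjusted p below 0.05, and sex by population called none (0.128% of all genes), with 0 at an unadjusted p below 0.05. DESeq2 also called 0 members in both.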

How the results depend on the processing

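Over 29 called differences of members, 292 alternative values were computed: 224 kept direction and side of the threshold, 66 kept direction but lost the threshold, and 2 changed sign, both for *Vegfd* without libraries against their sex label (sex in ASC1 0.16, ovariectomy by population -0.63). The number of members called moved by more than 1.5 times as follows, and the cause was not tested. Castration in ASC1 went from 0 to 1 with no filter and 2 with only the groups compared. Ovariectomy in ASC1 went from 5 to 3 without libraries against their labels. Ovariectomy in ASC2 went from 1 to 2 with DESeq2, filterByExpr, RLE size factors or voom with a replicate block, to 3 with no filter and to 0 without libraries against their labels. Sex in ASC1 went from 1 to 0 with only the groups compared, voom with a replicate block, or without libraries against their labels, and sex in ASC2 from 1 to 0 with filterByExpr, which removed *Angpt1*, or only the groups compared, and to 2 with no filter or without libraries against their labels (then *Angpt2* and *Angpt4*). Between populations, male controls went from 2 to 1 without libraries against their labels, female controls from 2 to 1 without them or with the replicate block (*Vegfc*, adjusted p = 0.053, was lost), castrated males from 5 to 3 with the block (*Tek* 0.98, adjusted p = 0.068, and *Vegfd* -0.98, adjusted p = 0.084, were lost), and ovariectomized females from 5 to 3 (no filter; only the groups compared), to 2 with the block (*Tie1* 1.11, adjusted p = 0.64, *Angpt4* 4.77, adjusted p = 0.051, and *Vegfb* were lost) and to 2 to 4 when 1 of the 3 ASC1 libraries was left out (2 without row L). Castration by population went from 0 to 1 with only the groups compared, and ovariectomy by population from 6 to 3 with the block.

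Libraries of one presumed mouse (same sex label and row letter) deviated together with a correlation over 0.1 in 0 of 8 castrated, 3 of 8 female control, 5 of 7 male control and 0 of 3 ovariectomized pairs, and male and female controls of one letter in 5 of 7 ASC1 and 3 of 8 ASC2 pairs. Not every pair passed, so the block was kept as an alternative, and whether letters mark a shared source was not settled. Depth limited *Angpt1*, *Tie1*, *Vegfb*, *Vegfc* and *Pgf*, with 182 to 539 reads each over all libraries.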

Other observations

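With a line of 100 CPM drawn after the values had been seen, *Angpt4* exceeded it in 13 of 58 libraries: 6 of castrated ASC1, 4 of ovariectomized ASC2, 2 of female control ASC2 and 1 of female control ASC1. Each of the 13 libraries had 4 or fewer Y-linked reads, 4 being the highest count among them. Their *Angpt4* values ran from 104 to 244 CPM. All castrated ASC1 and all ovariectomized libraries had 4 or fewer Y-linked reads, whatever their *Angpt4* level. Libraries with few Y-linked reads were also among the low ones, as in rows M to P of ovariectomized ASC2.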
